A study of Mus musculus with 4 samples.

Results

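The genes described here are 9 mouse genes of the JAK and STAT families, 6 that encode STAT transcription factors (Stat2, Stat3, Stat4, Stat5a, Stat5b and Stat6) and 3 that encode JAK kinases (Jak1, Jak2 and Jak3). They were taken by name out of 22380 protein-coding genes of the annotation, and the list does not hold every JAK and STAT gene of the mouse. The measurement was chromatin immunoprecipitation and sequencing (ChIP-seq) of RIF1, a chromatin protein that controls the timing of DNA replication and protects broken DNA ends. Chromatin came from primary B cells of mouse spleen, separated with anti-CD43 beads and cultured with 5 µg/ml lipopolysaccharide and 5 ng/ml IL-4 until they were collected 72 h after activation. Rif1FH cells (2 samples, genotype Rif1FH/FH) express RIF1 from its own gene with FLAG and HA epitopes at the N terminus. Rif1WT cells (2 samples, Rif1WT/WT) have untagged RIF1 and received the same stimulation. The study kept the mice of both genotypes on a C57BL/6 background. Both groups were described as precipitated with an anti-HA antibody, although the antibody label names the CD43 beads. The study used mice of both sexes without distinction, and the number of mice behind a sample was not given in the sources used here.

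All values rest on 1 list of 16332 intervals on genome build mm9, which the authors combined over both Rif1FH samples. It holds 16043 narrow intervals of 286 to 14827 bp (median 1365 bp), called peaks here. The other 289 are wide intervals of 90 to 4842 kb (median 576 kb), taken to be RIF1-associated domains (RADs), broad regions of lower enrichment. The list carries no height, score or value per sample. Read depth is therefore unknown, no SD, interval or test over samples could be given, and no level in Rif1WT cells stands beside any value. A gene with no listed peak is not shown to lack RIF1. The study kept only peaks outside RADs, so a gene inside a wide interval could have no peak by construction.

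JAKs are tyrosine kinases bound to the inner side of cytokine receptors. When a cytokine joins the receptor chains, the JAKs phosphorylate the receptor, STATs dock there, become phosphorylated, pair up and move to the nucleus to bind DNA. In B cells, IL-4 acts on a receptor of the IL-4 receptor alpha chain (Il4ra) with JAK1 and the common gamma chain (Il2rg) with JAK3, and STAT6 is its main transcription factor. Through STAT6, IL-4 directs class switching of antibody genes to IgG1 and IgE, the response for which these cultures are used.

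RIF1 peaks lay within 1 kb of an annotated transcript 5′ end in 4 of the 9 genes, Stat3, Stat5a, Stat6 and Jak2. This was 44.4% of the genes beside 33.9% of all coding genes (7584 of 22380). Stat2 and Jak3 lay inside wide intervals, 22.2% of the genes beside 22.6% of coding genes. Stat4, Stat5b and Jak1 had neither, 3 of 9 beside 43.8% of coding genes. Outside wide intervals, 4 of 7 genes had a peak at a 5′ end beside 43.4% of the 17329 coding genes there. With 9 genes, each of these shares was within 1 gene of the background, so the counts set the JAK and STAT genes apart from other coding genes in no direction. Where the genes did differ among themselves was in the position and width of the peaks.

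**Figure D1:**
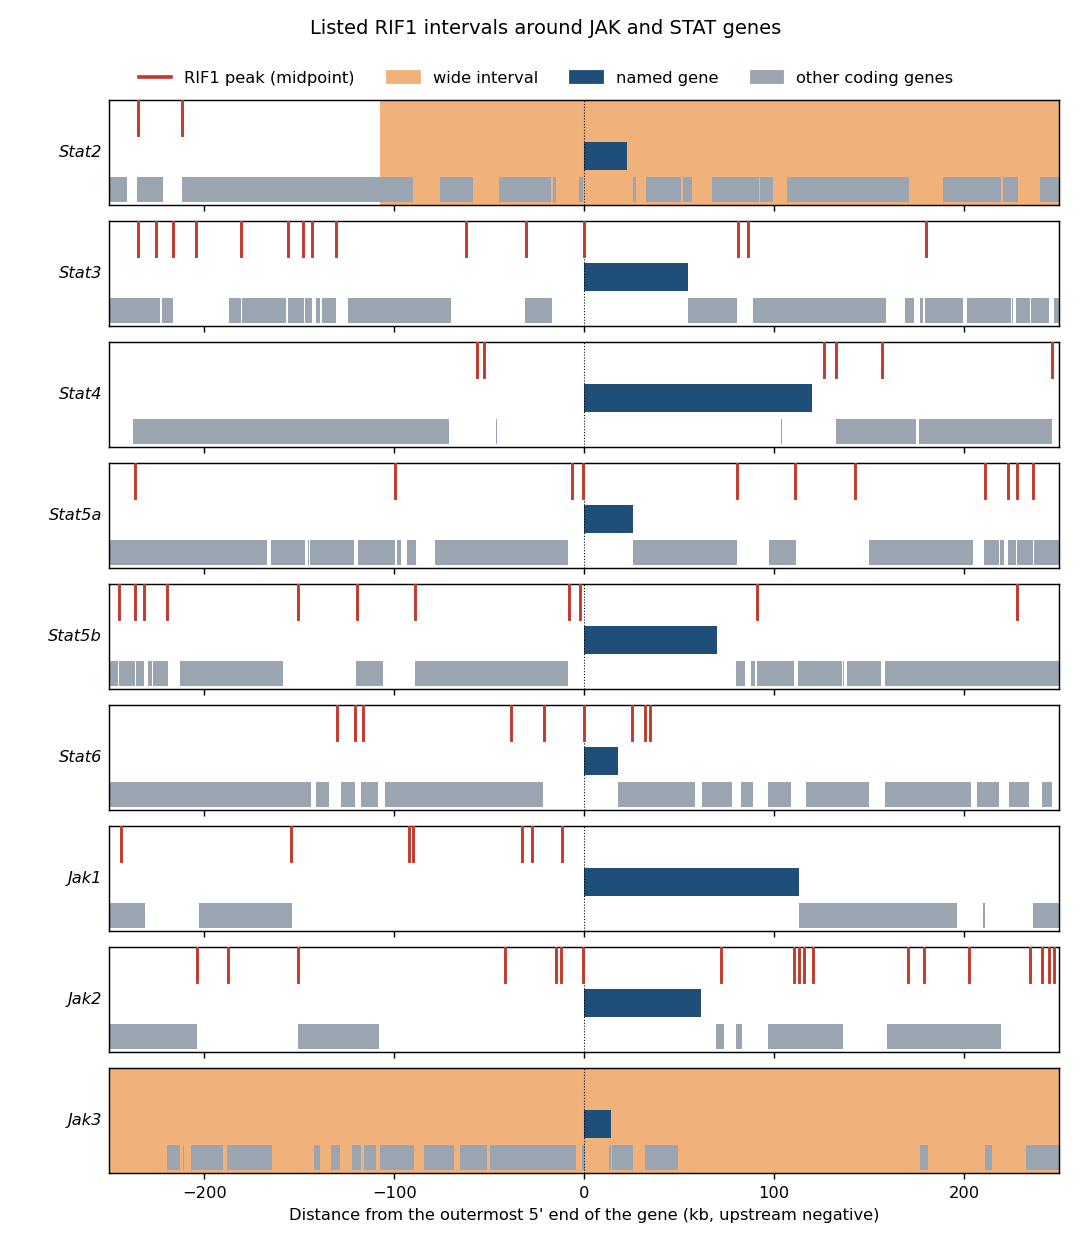
Listed RIF1 intervals around each of the 9 genes, as distance in kb from the outermost 5′ end of the gene, with upstream to the left, peak midpoints as red ticks, wide intervals shaded, the named gene in blue and other coding genes in grey. Stat3, Stat5a, Stat6 and Jak2 have a tick at 0, while Stat2 and Jak3 lie in shaded regions without ticks.

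The sequence beneath the 4 peaks at 5′ ends was read from the mm9 reference and is shown on the strand of the gene, with each CG dinucleotide in capitals, since the genes differed in CG content. For Stat3, Stat5a and Jak2 the middle 300 bases of the peak are given, and for Stat6 the 300 bases just before the outermost 5′ end, all of which the peak covers. The coordinates are chr11:100801047-100801346 on the minus strand for Stat3, and on the plus strand chr11:100719799-100720098 for Stat5a, chr10:127079742-127080041 for Stat6 and chr19:29325481-29325780 for Jak2.
Stat3 peak: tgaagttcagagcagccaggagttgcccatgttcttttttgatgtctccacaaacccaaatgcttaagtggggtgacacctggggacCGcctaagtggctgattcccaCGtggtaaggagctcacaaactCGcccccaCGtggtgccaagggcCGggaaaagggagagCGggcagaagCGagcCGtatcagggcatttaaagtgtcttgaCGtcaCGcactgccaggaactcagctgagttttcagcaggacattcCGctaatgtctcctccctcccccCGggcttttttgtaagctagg
Stat5a peak: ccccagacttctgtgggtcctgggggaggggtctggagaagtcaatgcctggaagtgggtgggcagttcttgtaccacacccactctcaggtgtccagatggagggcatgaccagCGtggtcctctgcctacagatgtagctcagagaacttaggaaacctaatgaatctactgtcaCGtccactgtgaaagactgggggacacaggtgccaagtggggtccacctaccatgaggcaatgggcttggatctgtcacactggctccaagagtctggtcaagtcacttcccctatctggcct
Stat6 peak: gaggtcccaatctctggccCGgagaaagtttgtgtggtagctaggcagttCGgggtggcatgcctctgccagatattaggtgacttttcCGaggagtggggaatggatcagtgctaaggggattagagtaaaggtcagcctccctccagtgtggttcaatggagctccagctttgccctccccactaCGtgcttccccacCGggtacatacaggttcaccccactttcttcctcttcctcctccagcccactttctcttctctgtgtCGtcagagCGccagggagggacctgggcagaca
Jak2 peak: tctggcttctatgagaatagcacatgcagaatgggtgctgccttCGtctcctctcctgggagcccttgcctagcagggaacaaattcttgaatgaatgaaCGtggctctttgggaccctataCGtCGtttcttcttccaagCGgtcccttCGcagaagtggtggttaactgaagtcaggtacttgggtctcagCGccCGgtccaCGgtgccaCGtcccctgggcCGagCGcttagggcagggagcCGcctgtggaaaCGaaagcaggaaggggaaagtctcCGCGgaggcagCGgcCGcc
These stretches hold 12 CG in Stat3, 2 in Stat5a, 7 in Stat6 and 18 in Jak2. The middle 300 bases of the Stat6 peak, which run on into the gene and are not printed, hold 17.

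The 300 bases just before the outermost 5′ end are shown in the same way for Stat5b and Stat4, which had neither kind of interval, since they differ most in CG content among the genes without a peak. They are chr11:100712039-100712338 on the minus strand for Stat5b and chr1:52043692-52043991 on the plus strand for Stat4.
Stat5b, no peak: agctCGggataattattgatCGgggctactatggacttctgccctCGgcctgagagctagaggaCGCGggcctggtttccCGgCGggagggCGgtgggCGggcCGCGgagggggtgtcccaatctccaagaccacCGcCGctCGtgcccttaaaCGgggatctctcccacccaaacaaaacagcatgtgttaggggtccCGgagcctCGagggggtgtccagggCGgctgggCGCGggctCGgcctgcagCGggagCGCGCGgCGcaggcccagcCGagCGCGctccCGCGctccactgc
Stat4, no peak: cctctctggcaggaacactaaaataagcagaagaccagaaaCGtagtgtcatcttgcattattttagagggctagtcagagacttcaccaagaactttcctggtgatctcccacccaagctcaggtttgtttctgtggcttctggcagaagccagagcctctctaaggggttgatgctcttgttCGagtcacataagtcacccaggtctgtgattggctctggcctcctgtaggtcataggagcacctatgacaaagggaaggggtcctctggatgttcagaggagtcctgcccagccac
Stat5b has 31 CG in this stretch and Stat4 has 2. Lack of a peak was thus found both over CG-rich and over CG-poor sequence. In the genes with a peak, the 300 bases before the outermost 5′ end hold 44 CG in Jak2, 15 in Stat3, 7 in Stat6 and 4 in Stat5a.

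Stat6 (ENSMUSG00000002147.11, chr10:127080042-127098013, plus strand), the main STAT of IL-4 signalling, had the widest of the 4 peaks. It covered 2468 bp, chr10:127078885-127081352, from 1157 bp upstream to 1310 bp downstream of the outermost 5′ end. Of this length, 264 bp lay in exons and 1047 bp in introns of Stat6, and the midpoint lay in an exon, 76 bp past the 5′ end. It was wider than 83.9% of the 7384 peaks at coding 5′ ends (median 1556 bp). The peak reached 2 of the 6 distinct 5′ ends of Stat6. The other 4 begin 10.093 to 16.414 kb further in and had no peak within 7.512 kb.

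Stat3 (ENSMUSG00000004040.10, chr11:100746412-100800854, minus strand) encodes the STAT used by IL-6 and IL-10 receptors. Its peak, chr11:100800428-100801964, was 1537 bp wide and ran from 1110 bp upstream to 426 bp downstream of the outermost 5′ end. Most of it, 1110 bp, lay before the gene, and 285 bp lay in exons. Its width was close to the middle of peaks at coding 5′ ends, 49.0% of which were narrower. It held 4 of the 14 distinct 5′ ends of Stat3. The remaining 10 lie 31.316 kb or more inside the gene, where no peak was listed within 30.89 kb of any of them.

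Stat5a (ENSMUSG00000004043.8, chr11:100720665-100746483, plus strand) encodes one of a pair of closely similar STATs that answer to IL-2, IL-7 and other cytokines. Its peak, chr11:100719701-100720196, was 496 bp wide and ended 469 bp before the outermost 5′ end, so that none of it lay in the gene. Only 1.99% of peaks at coding 5′ ends were narrower. The peak was within 1 kb of 3 of the 7 distinct 5′ ends, and those that begin 994 to 1134 bp further in were 1463 to 1603 bp away from it. The last 5′ end, 19.668 kb in, was 20.137 kb away.

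Jak2 (ENSMUSG00000024789.6, chr19:29326318-29387570, plus strand) encodes the kinase of the erythropoietin, growth hormone and interferon gamma receptors. Its peak, chr19:29325317-29325943, was 627 bp wide and likewise stopped short of the gene, 375 bp before its only distinct 5′ end. Of peaks at coding 5′ ends, 5.42% were narrower. The 4 peaks therefore fell into a broader pair that crosses the start of the gene (Stat3 and Stat6) and a narrower pair that lies wholly before it (Stat5a and Jak2). A peak over the gene itself was listed for 2 of 9 genes, Stat3 and Stat6, beside 35.8% of coding genes, and for 2 of 7 outside wide intervals beside 45.8%. Both of these peaks were the ones at the 5′ ends.

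**Figure D2:**
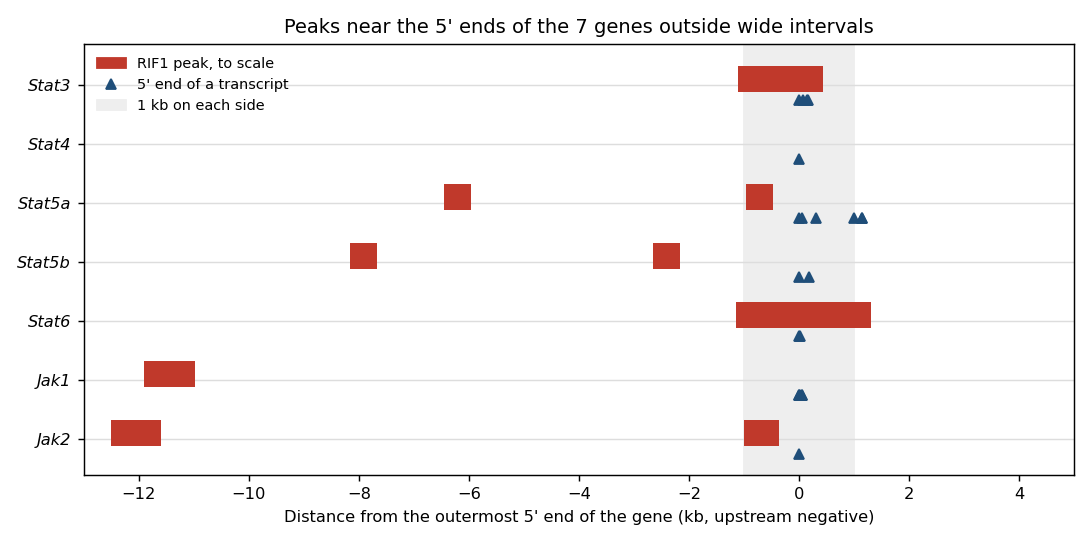
Peaks drawn to scale near the outermost 5′ ends of the 7 genes outside wide intervals, in kb with upstream negative, with transcript 5′ ends as triangles and the 1 kb on each side shaded. The Stat3 and Stat6 peaks cross 0, those of Stat5a and Jak2 end 0.469 and 0.375 kb before it, and the nearest of Stat5b lies 2.172 kb upstream.

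Stat5b (ENSMUSG00000020919.5, chr11:100642045-100712038, minus strand), the partner of Stat5a, had no peak within 1 or 2 kb of a 5′ end. The nearest, chr11:100714210-100714700, was 491 bp wide and ended 2.172 kb upstream of its outermost 5′ end. Stat5a and Stat5b stand head to head with 8.627 kb between their 5′ ends, and both narrow peaks, of 496 and 491 bp, fell in this stretch, the first nearer Stat5a and the second nearer Stat5b. Stat5a and Stat3 overlap at their 3′ ends by 72 bp, so Stat3, Stat5a and Stat5b form 1 run of genes. Within 100 kb of this run 6 peaks were listed, 1 at the start of Stat3 and 1 at that of Stat5a. The 5′ windows of these genes shared no peak with each other.

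Jak1 (ENSMUSG00000028530.8, chr4:100824972-100937887, minus strand), the kinase bound to the IL-4 receptor alpha chain, had its nearest peak 10.979 kb upstream (chr4:100948866-100949783, 918 bp). All 5 peaks within 100 kb lay upstream of Jak1, with midpoints at -11.437 to -92.352 kb from its outermost 5′ end (upstream negative). The widest was 3150 bp, and 2 of the 5 were at 5′ ends of noncoding genes. On the other side no peak lay in the 112.916 kb of the gene or for long past its 3′ end, so that Jak1 stood at the edge of 1179 kb without a peak or a wide interval. The comparison was with 9225 coding genes outside wide intervals with peaks on both sides but none over the gene. Of these, 29.6% were in a longer stretch without a peak (median 424 kb). Their stretches were measured between peaks alone and can run across wide intervals, which hold no peak. The share could thus be lower if wide intervals also ended a stretch.

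Stat4 (ENSMUSG00000062939.5, chr1:52043992-52164032, plus strand), which encodes the STAT of IL-12 signalling and is best known from T cells and natural killer cells, was the farthest of the 7 from a peak. The nearest, chr1:51991064-51991863 (800 bp), ended 52.129 kb upstream. The next one downstream began 125.345 kb past the 5′ end, beyond the gene, so that no peak was listed over 177 kb that include the whole of Stat4. Of the same 9225 genes, 67.7% were in a longer stretch, again measured between peaks alone and across any wide interval. Of coding genes outside wide intervals, 31.4% were farther from a peak than Stat4, 48.3% farther than Jak1 and 55.5% farther than Stat5b. For Stat5a this was 57.5%, for Jak2 57.9%, and for Stat3 and Stat6, whose outermost 5′ ends lie in a peak, 61.2%.

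**Figure D3:**
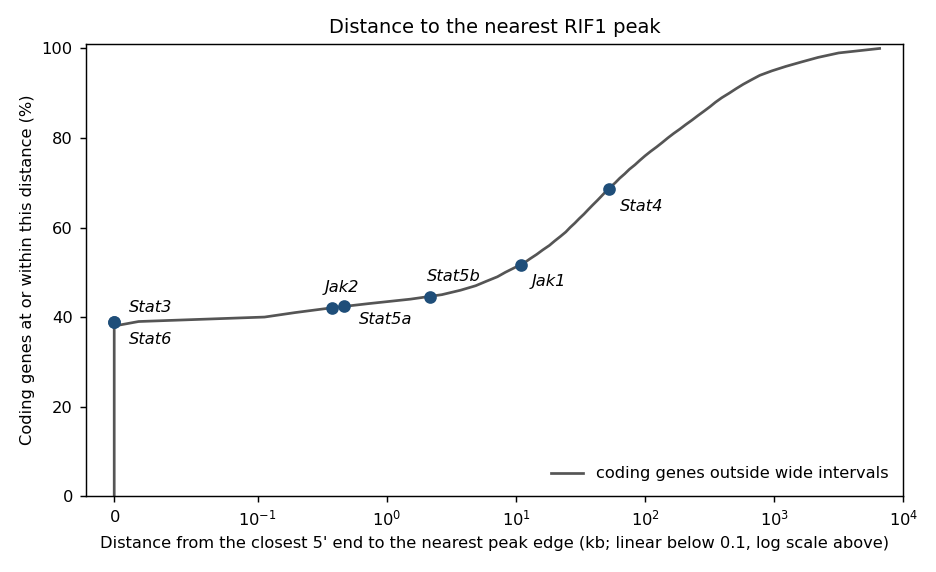
Share of coding genes outside wide intervals (percent, vertical axis) whose nearest RIF1 peak lies within a given distance of a 5′ end (kb, horizontal axis, linear below 0.1 and logarithmic above), with the 7 JAK and STAT genes outside wide intervals as points on the curve. Stat3 and Stat6 are at 0, Jak2 and Stat5a under 1 kb, Stat5b at 2.172 kb, Jak1 at 10.979 kb and Stat4 at 52.129 kb.

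The median distance from a 5′ end to the nearest peak was 2.172 kb over the 9 genes, beside 36.065 kb over coding genes. Outside wide intervals it was 0.469 kb over 7 genes beside 8.271 kb. With genes at 0 and at 52.129 kb in the same set, these medians describe the list and were not tested. Counting the gene and 100 kb on each side, Jak2 had 9 peaks, Stat6 had 6, Stat3, Stat4, Stat5a and Jak1 had 5 each and Stat5b had 4. The median outside wide intervals was 5, beside 3 for coding genes. Longer genes take in more sequence by this count, and the median length was 54.4 kb for the 9 genes beside 15.4 kb for coding genes.

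The 31 distinct peaks in these stretches were placed by annotation. A JAK or STAT 5′ end held 4, other coding 5′ ends held 10 and noncoding 5′ ends alone held 2, while 15 were at no annotated 5′ end. Neighbours were taken by the closest pair of transcript starts, inner ones included. The coding gene nearest to Stat6 was Nab2 (6.081 kb). It and the one nearest to Jak2, Insl6 (73.528 kb), each had 1 peak at a 5′ end. Gm8420 beside Stat4 (45.887 kb) and Raver2 beside Jak1 (85.64 kb) had none and lay outside wide intervals. No neighbour shared a peak with a JAK or STAT gene. Inside the 7 genes and away from any 5′ end, 0 peaks were listed in 462 kb, which allows up to 0.649 per 100 kb (3 counts, counting error only). Coding genes outside wide intervals had 0.383 per 100 kb, so a difference was not detectable with this many genes.

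Jak3 and Stat2 were in wide intervals. Jak3 (ENSMUSG00000031805.10, chr8:74200195-74214474, plus strand) encodes the kinase of the common gamma chain, found mostly in blood cells. It lay in chr8:72140001-74900000, which is 2760 kb wide and holds 115 coding genes. Of wide intervals, 98.6% were of this width or less, the interval itself included. Jak3 was 2060 kb from the start of this interval and 686 kb from its end, and its nearest peak was 743 kb away. Its nearest coding neighbour, Gm9933, starts 0.122 kb away on the other strand and lay in the same interval.

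Stat2 (ENSMUSG00000040033.8, chr10:127707629-127729905, plus strand) encodes a STAT of the type I interferon response. It lay in chr10:127600001-128268000, which is 668 kb wide and holds 38 coding genes. This gives 56.9 coding genes per Mb, beside 41.7 per Mb in the interval of Jak3. Stat2 was 108 kb from its start, and the nearest peak was 211 kb upstream of its 5′ end. Its neighbour Apof (2.576 kb between the closest starts) lay in the same interval. Stat6 is on the same chromosome 610 kb before Stat2 and was 252 kb from its own nearest wide interval, a different one, so these STAT genes were listed in different classes. The other 6 genes were much farther from wide intervals, Stat5b, Stat5a and Stat3 by 1.46 to 1.57 Mb, Jak1 by 11.9 Mb, Jak2 by 14.8 Mb and Stat4 by 15.8 Mb.

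RIF1 peaks at coding 5′ ends were listed more often where CpG was frequent, and the JAK and STAT genes were read against this. The measure was the ratio of observed to expected CpG in the 1 kb on each side of the outermost 5′ end. Its median was 0.644 for coding genes with a peak there and 0.244 for those with neither kind of interval. Jak2 had a ratio of 0.833, with 94.3% of coding genes lower, and had a peak like 74.6% of coding genes between 0.8 and 0.9. Stat3 (0.503) and Stat6 (0.432) had peaks in classes where 65.1% and 50.8% did. Stat4 (0.246) had none, in a class where 8.62% of genes had one.

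The remaining 3 were in the smaller part of their class. Stat5b (0.716) and Jak1 (0.697) had CpG-rich starts and no peak, where 73.1% and 71.5% of coding genes had one. Stat5a (0.254) had a peak in the class with 8.62%. Its later 5′ ends, 994 to 1134 bp further in, had ratios of 0.446 to 0.470, but the peak lay on the other side, over sequence with a ratio of 0.132 that was lower than in all but 6.19% of peaks. The nearest peak of Stat5b was similarly poor in CpG (0.162), while that of Jak2 (0.771) was higher than 91.0% of peaks. These are descriptions of 7 genes and no test was made.

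**Figure D4:**
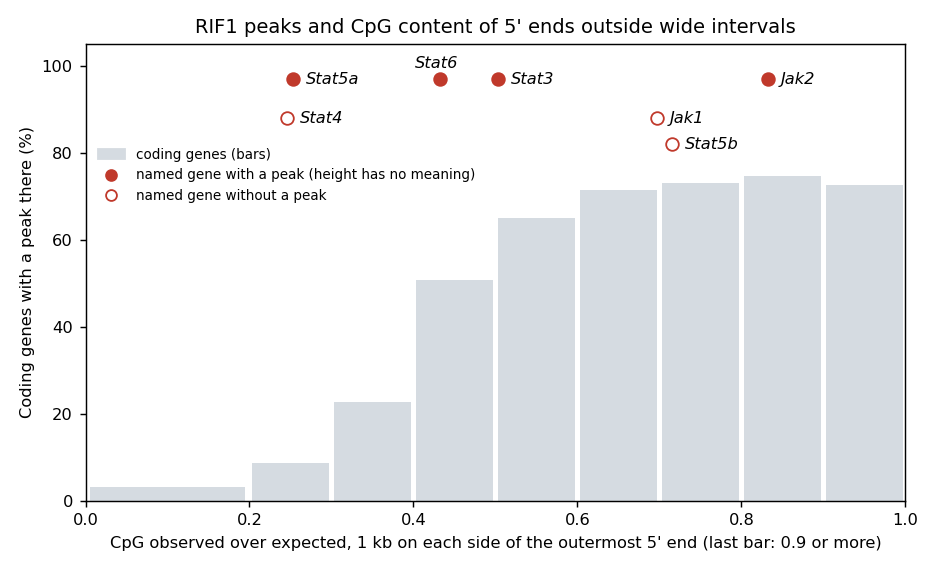
Bars give the percent of coding genes outside wide intervals with a RIF1 peak within 1 kb of the outermost 5′ end, by the ratio of observed to expected CpG there, and circles place the 7 JAK and STAT genes on the horizontal axis, filled where a peak was listed. Open circles of Jak1 and Stat5b stand over bars of 71.5% and 73.1%, and the filled circle of Stat5a over a bar of 8.62%.

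The reference at these starts could be read by unique alignment, which the authors required. Words of 32 bases that occur once in the genome began at 96.5% of positions around the start of Jak1, at 99.9% around Stat5b and at every position around Stat4, so the windows without a peak were almost wholly alignable with reads of that length or more. Over whole genes the share was 88.7% (Stat5a) to 97.9% (Jak3). The exons of Stat5a and Stat5b share 716 such words, 10.8% of those of Stat5a and 14.6% of those of Stat5b. The peaks nearest to their starts lay between the genes. The list holds no read coverage, and whether alignment bears on the lack of a peak was not tested.

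STAT dimers bind paired TTC and GAA, and STAT6 favours a spacing of 4 bases where other STATs favour 3. Each motif is its own reverse complement, so a single reading covers both strands. TTC and GAA were found with a spacing of 3 bases in 45.2% and of 4 bases in 40.2% of all coding windows of 1 kb on each side, and in 35.6% and 31.9% of peaks. Most peaks are shorter (median 1365 bp) than these windows of 2 kb. A shorter stretch has less room for a match, so the shares of windows and peaks are not comparable. The windows of the 9 genes held 11 matches, 5 of them in the windows of Stat3, Stat5a, Stat6 and Jak2, which have a peak. Of these 5, 2 lay in the peak (40%), beside 64.8% of the 7216 matches in coding windows with a peak. Such a share depends on how much of the window the peak covers. The Stat5a and Jak2 peaks are narrow (496 and 627 bp, beside a median of 1556 bp at coding 5′ ends), so these shares are not directly comparable. In Stat6 the match in the peak was TTCCCTAGAA, spaced by 4, at chr10:127080629-127080638, 587 bp past the 5′ end. In Jak2 it was TTCGCAGAA, spaced by 3, at chr19:29325629-29325637, at -689 to -681 bp from the 5′ end. Stat5b had no match in its window. A pattern of 4 runs of at least 3 G with 1 to 7 bases between runs, on either strand, which can fold into a G-quadruplex, was found in 38.6% of peaks. The peaks of Stat3, Stat5a and Stat6 held it, and that of Jak2 did not.

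The other genes of the pathway were taken from a list of 30 genes in 7 roles. A peak at a 5′ end was listed for 9 of the 30 (30%), beside 33.9% of coding genes. A wide interval covered 12 (40%), beside 22.6%, and a peak lay over the gene in 8, beside 35.8% of coding genes. Outside wide intervals, 9 of 18 pathway genes had a peak at a 5′ end beside 43.4% of coding genes there. A peak lay over the gene in 8 of these 18, beside 45.8%. The chain that JAK1 serves, Il4ra, had a peak of 1365 bp at its start, while the other 3 receptor chain genes and both cytokine genes had no peak at a 5′ end and lay outside wide intervals. Those 3 receptor chain genes are all on chromosome X, and 1 of them had a peak over the gene. Of the cytokine genes, 1 had peaks over the gene, and the other had a peak 1.185 kb from a 5′ end, just past the window. Of the 4 adaptors that carry the signal to lipid kinase and Ras pathways, Irs1 had a peak of 4188 bp, and Irs2, Shc1 and Grb2 were in wide intervals.

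Of the 8 SOCS family genes, which encode feedback inhibitors of JAKs, Socs2, Socs4 and Socs5 had peaks at a 5′ end, the widest of each 2055, 1665 and 815 bp, and Socs1, Socs3 and Socs7 lay in wide intervals. Socs3 and the adaptor gene Grb2 were in 1 interval of 3880 kb. Of 5 phosphatase genes, Ptprc (CD45) had a peak of 388 bp, and Ptpn1 and Ptpn6 were in wide intervals. Of 4 PIAS genes, which encode SUMO ligases that restrain STATs, Pias1 (741 bp) and Pias2 (970 bp) had peaks, and Pias3 and Pias4 were in wide intervals. Of 3 genes that IL-4 induces in B cells, Fcer2a (CD23) had 2 peaks at its 5′ ends, and Nfil3 and H2-Aa were in wide intervals. The list was chosen by knowledge of the pathway and its counts were not tested.

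**Figure D5:**
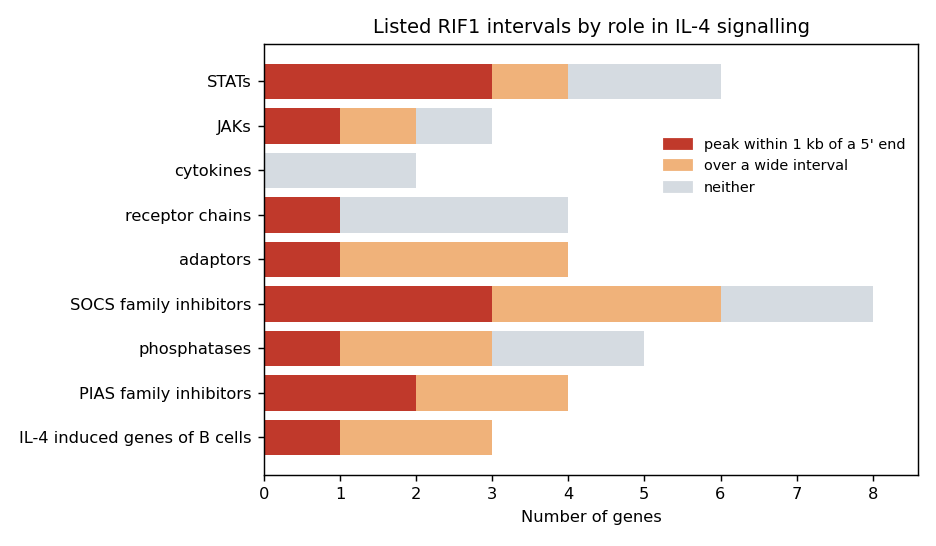
Number of genes (horizontal axis) of each role in IL-4 signalling with a RIF1 peak within 1 kb of a 5′ end, over a wide interval, or with neither. Of the STATs 3 of 6 and of the JAKs 1 of 3 have a peak, and 3 of 4 adaptors are in wide intervals.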

How the data were processed

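RIF1 ChIP-seq was made by the authors from 2 Rif1FH and 2 Rif1WT samples. Per the labels and the study's methods, they trimmed reads (Trim Galore 0.6.4), aligned them to mm9 keeping unique alignments (Bowtie 1.0.0), called peaks (MACS2 2.2.6) and RADs (EDD), and combined both Rif1FH replicates (bedtools 2.27.1). A peak was kept only if it was called in both replicates. Narrow and broad peak calls were merged, so the width of a listed peak can come from either kind of call. deepTools 3.3.0 is also named in the submitters' processing notes. Thresholds and the use of Rif1WT in calling were not given in the sources used here. The deposited unit is a position (chromosome, start, end), with no counts or scores, so that depth and precision are unknown.

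Intervals under 50 kb were called peaks. 1 interval ran past the end of its chromosome and lay near none of these genes. Gene models were GENCODE M1 on the reference NCBIM37 (mm9), and coordinates count from 1. An overlap needed 1 bp, and "at a 5′ end" means within 1 kb of any annotated transcript start. Unique words, CpG ratios and motifs were read from the reference. Python 3.11.15, numpy 2.4.6 and pysam 0.24.0 were used, and the interval and sequence code was tested on simulated data.

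All 9 genes are named, with pathway genes that had a peak at a 5′ end or lay in a wide interval, and the coding gene nearest to each. The genes, lists and split at 50 kb were chosen with earlier results of these data known. Alternatives were other windows, transcripts, overlaps, widths and flanks.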

Additional observations from a re-analysis of the deposited data

How the results depend on the processing

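Of 37 comparisons of 7 results with an alternative, 27 stayed within 1.5 times the reported value and 10 did not. With a window of 0.1 kb, 2 of the 9 genes had a peak at a 5′ end (31.1% of coding genes), and with peaks of at least the median width of 1365 bp also 2 (21.7%). Stat5a and Jak2 were lost both times, by the construction of the alternatives, since their peaks are 496 and 627 bp wide and lie 469 and 375 bp away. With a window of 5 kb Stat5b was added. The wider peaks alone gave 5 pathway genes in place of 9, 14 peaks within 100 kb in place of 39 (summed over the genes, with shared peaks counted for each) and a median distance of 62.2 kb in place of 2.172 kb. The whole list, with wide intervals, gave 21 of the 30 pathway genes with an interval at a 5′ end, beside 56% of coding genes. It also gave 4 genes in place of 2 with an interval over the gene and a median distance of 0.375 kb. Counting midpoints inside the gene left 1, Stat6, and 200 kb on each side gave 66 peaks. For these alternative counts over the gene, the share of coding genes was not computed. The counts in wide intervals, 2 and 12, did not move under any alternative run.

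The alternatives without a replicate were not run, as the authors deposited both replicates combined. No paired analysis was possible because positions were listed without a value for any single sample. No depth, enrichment or Rif1WT level limits or ranks the peaks named here, and whether both Rif1FH samples had equal signal at any of them was not tested.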
